A study of Homo sapiens with 6 samples.

Results

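The longest stretches of H3K27me3 in H1299 cells were examined, namely listed intervals that span at least 10 kb in control or metformin-treated cells. H3K27me3 is the trimethylation of lysine 27 on histone H3. It is deposited by Polycomb repressive complex 2, whose catalytic subunit EZH2 writes the mark and whose subunit EED binds it, so that the mark can spread along neighbouring nucleosomes into broad domains. Such domains are known from silent developmental genes. H3K4me3, the trimethylation of lysine 4, marks active promoters, and promoters that carry both marks are called bivalent.

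H1299 (ATCC CRL-5803) is a long-established line of human lung cancer cells, of the non-small cell kind. The control cells had no treatment, and the treated cells were given metformin at 5 mM. Metformin, a biguanide, is a common drug for type 2 diabetes. The duration of treatment is not given in the sources used here. There was 1 library for each mark and condition, and the 2 input libraries of the series were not analysed here, so no value below has replicate error and no test between conditions was possible. The results hold for 1 cell line. Its marker genes were not checked, because no gene positions on the build of the lists (hg19) were at hand, and regions are therefore named by position alone.

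The members were chosen by the widths of the listed H3K27me3 intervals. Of 85579 control intervals 210 spanned 10 kb or more, and of 85952 metformin intervals 289 did. Overlapping ones joined into 394 regions, against 124627 joined regions for H3K27me3 intervals of every width. The long intervals held 0.245% of the control and 0.336% of the metformin intervals, but 3.38% and 4.32% of the listed length. The regions summed to 5.79 Mb, with a median length of 12.6 kb (quartiles 11.0 and 15.8 kb) and a maximum of 50.2 kb.

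Most regions passed the length limit in 1 list only. Long intervals of both lists met in 88 regions (22.3%), 114 regions (28.9%) were long in the control list only, and 192 (48.7%) in the metformin list only. Regions long in both lists had a median length of 18.5 kb, against 11.4 kb for control-only and 12.2 kb for metformin-only regions. The joined length exceeded 20 kb in 48 regions, and 42 of these were long in both lists. These counts follow from the rule and are given as a description.

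Membership near the limit turned on a few base pairs. The 5 shortest members were 10023 to 10045 bp long. The 5 widest intervals below the limit, all in the metformin list, measured 9972 to 9996 bp, and the widest of these lay in a region that a control interval had brought in. Between 9 and 10 kb there were 58 control and 83 metformin intervals, and between 10 and 11 kb there were 70 and 68.

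The regions were concentrated on chromosomes 12 and 19. Chromosome 12 held 107 of the 394 regions (27.2%) and 31.6% of their length, although it held 7.48% of all listed H3K27me3 length in control and 7.35% after metformin. Chromosome 19 held 36 regions and 11.4% of the length, against 3.01% and 3.06% of all listed H3K27me3. The intervals of 2 to 10 kb were less concentrated there: chromosome 12 held 9.14% of their length in control and 8.03% after metformin, and chromosome 19 held 3.19% and 3.21%. For H3K4me3 the shares of listed length were 6.41% and 6.15% on chromosome 12 and 6.97% and 7.37% on chromosome 19.

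Both chromosomes also held most of the regions that were long in both lists. Of those 88 regions, 61 (69.3%) lay on chromosomes 12 and 19, against 27 of 114 control-only regions (23.7%) and 55 of 192 metformin-only regions (28.6%). Of the 48 regions of 20 kb or more, 24 lay on chromosome 12 and 12 on chromosome 19. Long intervals made up 15.6% of the listed H3K27me3 length of chromosome 12 in control and 19.9% after metformin, and 17.7% and 17.8% on chromosome 19. On chromosome 1, with 19 regions, they made up 1.56% and 1.43%. Chromosome 13 held no region, chromosome X held 1, chromosome 15 held 2 and chromosome 10 held 3.

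**Figure D1:**
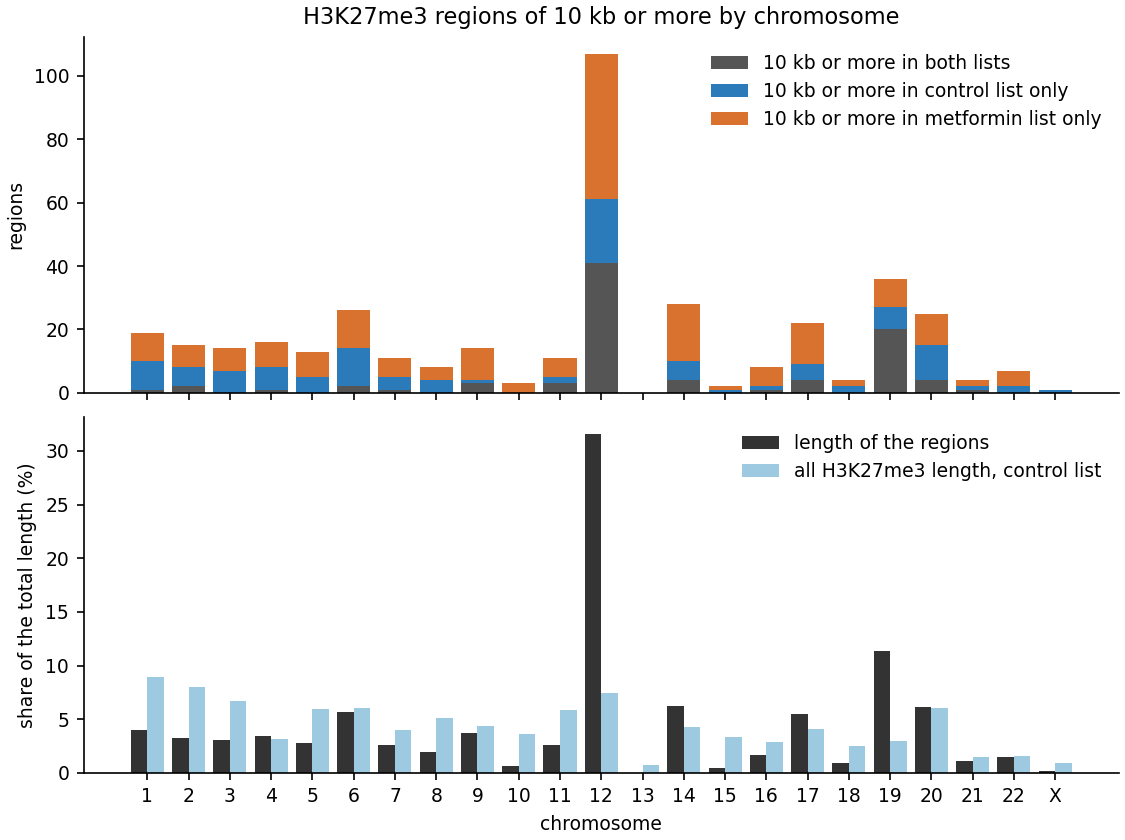
Upper panel: number of H3K27me3 regions of 10 kb or more on each chromosome, stacked by the list in which they were long. Lower panel: share (%) of the summed region length and of all listed control H3K27me3 length on each chromosome. Chromosome 12 holds 107 regions and 31.6% of the region length, against 7.48% of all control H3K27me3 length.

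Within chromosome 12 the regions were packed near its start. Its first 10 Mb held 73 regions with 1258 kb, or 21.7% of the length of all regions. Of these, 30 were long in both lists, 18 in control only and 25 after metformin only, and the control list covered 90.6% and the metformin list 93.6% of their length. A second concentration between 40 and 60 Mb held 24 regions with 424 kb. On chromosome 19, the stretch from 40 to 43 Mb held 29 of the 36 regions, with 541 kb, of which 91.9% was covered in control and 94.3% after metformin.

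Regions tended to lie near each other. The median distance to the nearest other region was 26.6 kb, 110 of the 394 regions had another within 10 kb, and 256 had one within 100 kb. Linking regions within 100 kb of each other gave 208 groups, of which 138 held a single region and 11 held 5 or more. Those 11 groups contained 116 regions, and all of them lay on chromosomes 12 and 19.

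The group with most regions was chr12:2127180-2861774, a span of 735 kb with 21 regions. Over the whole span, including the sequence between regions, the control list covered 76.1% and the metformin list 76.6%. Next came chr12:5541842-6126332 with 19 regions, where the covers were 75.4% and 76.5%. The lists thus filled both spans to nearly the same extent.

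The third group, chr19:41959797-42361594, held 14 regions in 402 kb and was covered to 77.6% in control and 83.2% after metformin. In chr12:52729643-53254860, with 13 regions, the covers were 73.2% and 80%, and 7 of the 13 were long after metformin only and none in control only. In chr19:40041199-40255604 all 6 regions were long in both lists, and the covers were 86.4% and 86.2%. Outside these chromosomes groups had at most 4 regions. The group chr14:70277162-70408298 held 4 that were all long after metformin only, with covers of 66.2% and 75%.

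The surroundings of the regions were also rich in H3K27me3. From 5 to 10 kb outside their ends, control intervals covered 54.0% and metformin intervals 59.0% of the sequence, and from 50 to 100 kb outside they covered 34.2% and 37.0%. Around intervals of 2 to 10 kb the same windows held 33.6% and 21.2% in control, and 34.9% and 21.9% after metformin. In the first 500 bp outside the regions the covers were 27.7% and 21.1%. The dip follows in part from the lists themselves, since intervals of a list lie at least 642 bp (control) or 670 bp (metformin) apart.

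Every region held intervals of both lists. All 210 long control intervals overlapped a metformin interval and all 289 long metformin intervals a control interval, against 48.3% of the control and 46.3% of the metformin intervals of every width. A wide interval is touched more easily, so covered length was compared as well. Of the length of long control intervals 85.4% was covered by the metformin list, and of the length of long metformin intervals 78.5% by the control list. For intervals of 2 to 10 kb the shares were 58.8% and 53.2%, and for all intervals 43.1% and 39.5%. These are shares within 1 pair of libraries, with no replicate to set them against.

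Over all 394 regions the control list covered 4.92 Mb (85.0%), the metformin list 5.36 Mb (92.7%), and both together 4.50 Mb (77.7%). The first 2 values follow largely from the rule, since the 192 metformin-only regions are full in the metformin list and the 114 control-only regions in the control list. Regions long in both lists were covered to a median of 92.8% by control (range 78.8 to 100%) and 94.8% by metformin intervals (77.1 to 100%). Metformin cover was the higher in 56 of these 88 regions and control cover in 32. The metformin list was also longer as a whole, 93.3 against 85.5 Mb, and nothing particular to these regions was read from the counts.

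A region long in 1 list is full in that list by the rule, so only the other list's cover carries information. The metformin list covered the 114 control-only regions to a median of 80.2%, with quartiles of 71.0% and 86.5% and a lowest value of 43.3%. The control list covered the 192 metformin-only regions to a median of 73.4%, with quartiles of 63.0% and 81.4% and a lowest value of 20.8%. Cover was below 50% in 2 control-only and 18 metformin-only regions, so nearly all such regions carried the mark over most of their length in the other condition too.

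**Figure D2:**
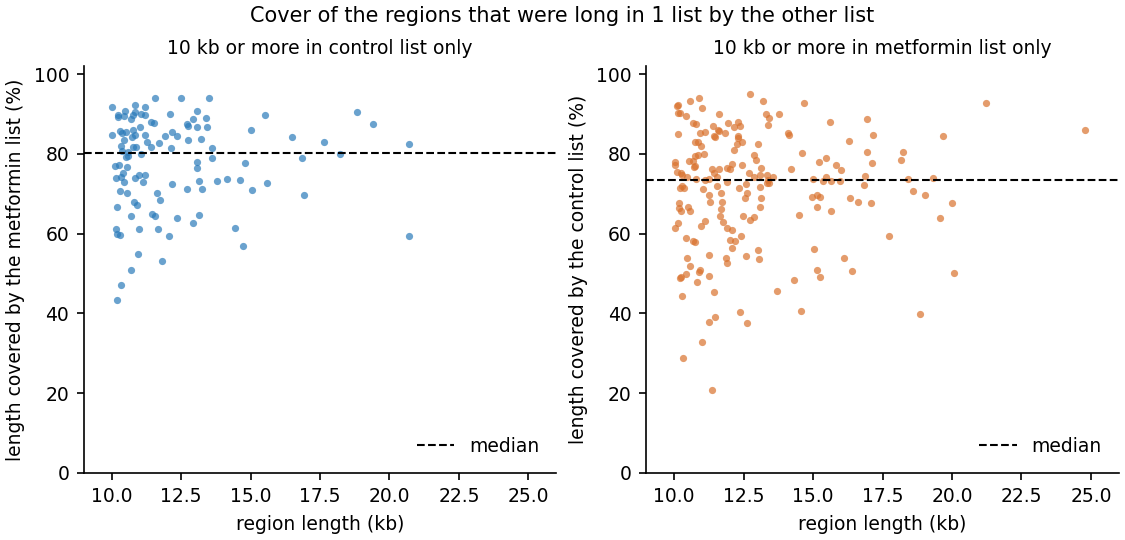
Each point is a region that was 10 kb or more in 1 list only, with its length (kb) on the horizontal axis and the share of it (%) covered by the other list on the vertical axis. The dashed lines mark the medians, 80.2% for metformin cover of 114 control-only regions (left) and 73.4% for control cover of 192 metformin-only regions (right).

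The 5 regions with the lowest cover by the other list were all metformin-only. At chr14:72263787-72275152, which was a single metformin interval of 11.4 kb, 2 control intervals covered 20.8%. At chr12:13797936-13808273 control cover was 28.9% in 4 intervals, and at chr5:134926227-134937233 it was 32.7% in 3. In these regions the longest control interval measured 1.38 to 1.90 kb. The other two were chr17:47993771-48006387, with 37.7% in 4 control intervals, and chr22:26636326-26647565, with 37.9% in 5. No H3K4me3 was listed in any of the 5, in either condition. Most regions were alike in this, since H3K4me3 touched 9.90% of all 394 regions in control and 10.4% after metformin.

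Long intervals of 1 condition were mostly found in several pieces in the other. The metformin list divided 175 of the 210 long control intervals (83.3%, exact 95% interval 77.6 to 88.1), and the control list divided 253 of the 289 long metformin intervals (87.5%, 83.2 to 91.1). Of all H3K27me3 intervals, 5.51% in the control list and 6.68% in the metformin list met 2 or more of the other list, and among those of 2 to 10 kb the shares were 38.7% and 42.0%. The exact intervals here and below cover counting error only. The median number of pieces was 3 in both directions, and the most was 7 metformin pieces and 8 control pieces.

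The longest partner of a long interval in the other list mostly measured 5 kb or more. Its whole width was counted, with any part outside the long interval, and undivided partners were included. Of the long control intervals, 96 (45.7%) met a metformin interval of 10 kb or more, 84 had a longest partner of 5 to 10 kb and 30 one of under 5 kb. Of the long metformin intervals the numbers were 97 (33.6%), 121 and 71. Only 4 long metformin intervals and no long control interval had a longest partner under 2 kb.

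By region, 129 of 394 (32.7%, 28.1 to 37.6) were 1 interval in control and 2 or more after metformin, which is called divided here. The reverse, several control intervals and 1 metformin interval, called joined, held for 208 regions (52.8%, 47.7 to 57.8). In 42 regions (10.7%) both lists had several intervals, and in 15 (3.81%) each had 1. The rule itself sets much of this, since a region long in the control list only is 1 control interval by construction. Among the 88 regions long in both lists the counts were close, with 17 divided, 18 joined, 42 in several pieces in both and 11 undivided in both. The smallest gap of the control list was 642 bp and that of the metformin list 670 bp, so 56 control gaps inside long metformin intervals were narrower than any metformin gap. With gaps under 670 bp closed in both lists there were 237 long control and 289 long metformin intervals, and of the 408 regions they gave, 144 were divided and 194 joined.

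The gaps that divided long intervals were narrow. Inside long control intervals the metformin list left 357 gaps with a median width of 849 bp (quartiles 744 and 1045), of which 255 were under 1 kb and 10 were 2 kb or wider. Inside long metformin intervals the control list left 628 gaps with a median of 895 bp (738 and 1245), of which 380 were under 1 kb and 50 were 2 kb or wider. The widest gaps measured 5083 and 5065 bp. Gaps between pieces made up 83.4% and 80.9% of the length that the other list left uncovered, and shortened ends made up the rest. When gaps under 1 kb were ignored, 68 regions were divided and 151 joined, and when gaps under 2 kb were ignored, 10 and 45.

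**Figure D3:**
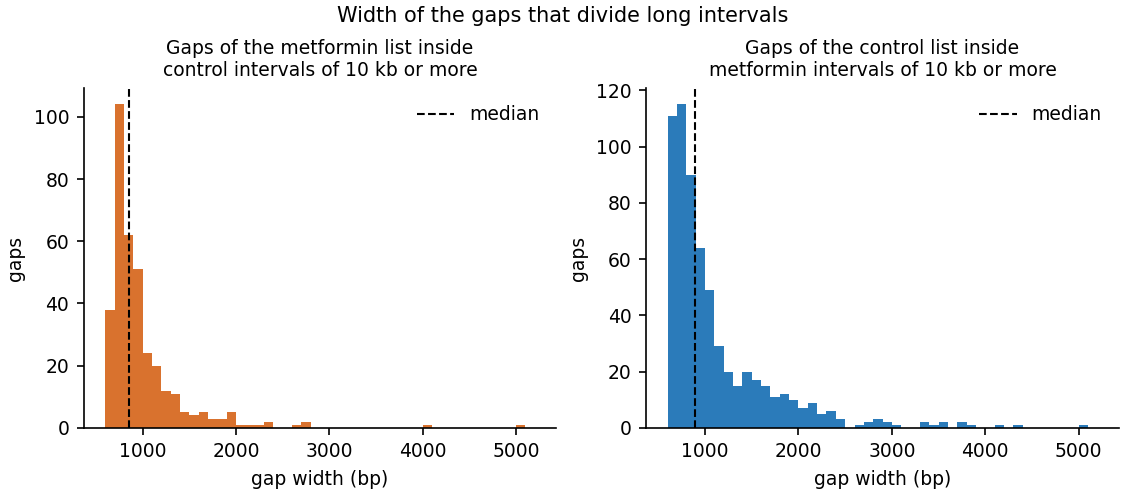
Number of gaps by width (bp, in steps of 100) that the metformin list left inside 210 long control intervals (left) and the control list left inside 289 long metformin intervals (right). The dashed medians stand at 849 and 895 bp, and most gaps lie under 1 kb.

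The region divided into most pieces was chr7:131411992-131423788, an 11.8 kb control interval. Metformin intervals touched it in 7 places and covered 53.2% of it. The longest, 8.36 kb wide, lay mostly outside and reached only 1378 bp into the region. The next longest measured 2.41 kb. In chr12:5933759-5950673 (16.9 kb) 6 metformin intervals covered 69.8%, and in chr1:204266433-204279372 (12.9 kb) 6 covered 62.8%. These 3 regions were long in the control list only. They held no H3K4me3, like most of the 394 regions.

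The other two of the 5 most divided were longer. In chr12:4963280-4993107, a control interval of 29.8 kb, 5 metformin intervals covered 84.7%, the longest being 11.3 kb, and this region was therefore long in both lists. In chr8:74131276-74151986, a control interval of 20.7 kb, 5 metformin intervals of at most 6.08 kb covered 82.4%. Metformin cover of both exceeded that of the 3 regions above.

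The region joined from most pieces was chr19:39766405-39786479, a metformin interval of 20.1 kb. The control list touched it with 8 intervals of at most 4.15 kb and covered 50.2%. In chr14:69995553-70011945 (16.4 kb) 8 control intervals of at most 2.32 kb covered 50.7%. Next came chr2:219900431-219919734 (19.3 kb), with 74.0% covered by 7 control intervals. Control cover of regions joined from many pieces thus varied, and it was lowest of these 5 in the fourth, chr20:37282336-37301196 (18.9 kb), where 7 control intervals of at most 2.29 kb covered 39.8%. The fifth was chr9:37006560-37025150 (18.6 kb), with 70.6% covered by 7.

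The longest regions were mostly divided in at least 1 list, and the lists differed in cover in some of them and hardly in others. The longest, chr12:53054410-53104576 (50.2 kb), held 6 control intervals over 91.8% and 4 metformin intervals over 94.4%. The next, chr12:4296223-4345691 (49.5 kb), held 6 control intervals over 88% and was 1 metformin interval over 99.3%. At chr19:42000532-42046909 (46.4 kb) the control list had 4 intervals over 90.3% and the metformin list a single one.

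In the following longest regions both lists had several intervals. At chr12:54921809-54963466 (41.7 kb) there were 5 control intervals over 89.1% and 4 metformin intervals over 93.0%. At chr12:5156581-5197581 (41.0 kb) there were 3 over 94.7% and 4 over 94.2%, and at chr19:40041199-40077159 (36.0 kb) 2 over 94.0% and 3 over 95.3%. Metformin cover was the higher in 8 of the 10 longest regions, and in 6 of the 10 the difference was under 5 percentage points. The metformin list was the longer one genome-wide too, so nothing particular to these regions was read from this. On chromosome 17, chr17:77320428-77356194 (35.8 kb) held 5 control intervals over 86.5% and 4 metformin intervals over 92.5%. At chr12:2127180-2161501 (34.3 kb) 6 control intervals covered 87.3% of what was 1 metformin interval, and at chr12:5020017-5054160 (34.1 kb) each list had 3 intervals, over 95% and 94.9%.

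Among the 10 longest, chr19:41959797-41994675 (34.9 kb) alone was undivided in both lists. Its control interval spanned 34784 bp and its metformin interval 34832 bp, with the left ends 95 bp and the right ends 47 bp apart. Across the 15 regions that were 1 interval in each list, the 30 pairs of ends lay a median of 512 bp apart (17 to 3494 bp), and 25 were within 1 kb. Other close matches were chr12:2163531-2179586, with ends 134 and 61 bp apart, and chr12:2851375-2861774, with ends 71 and 64 bp apart. The metformin interval was the longer in 9 of the 15. The farthest ends, 3494 bp apart, were those at chr15:69434318-69447197, where the control interval measured 8255 bp and the metformin interval 12880 bp.

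**Figure D4:**
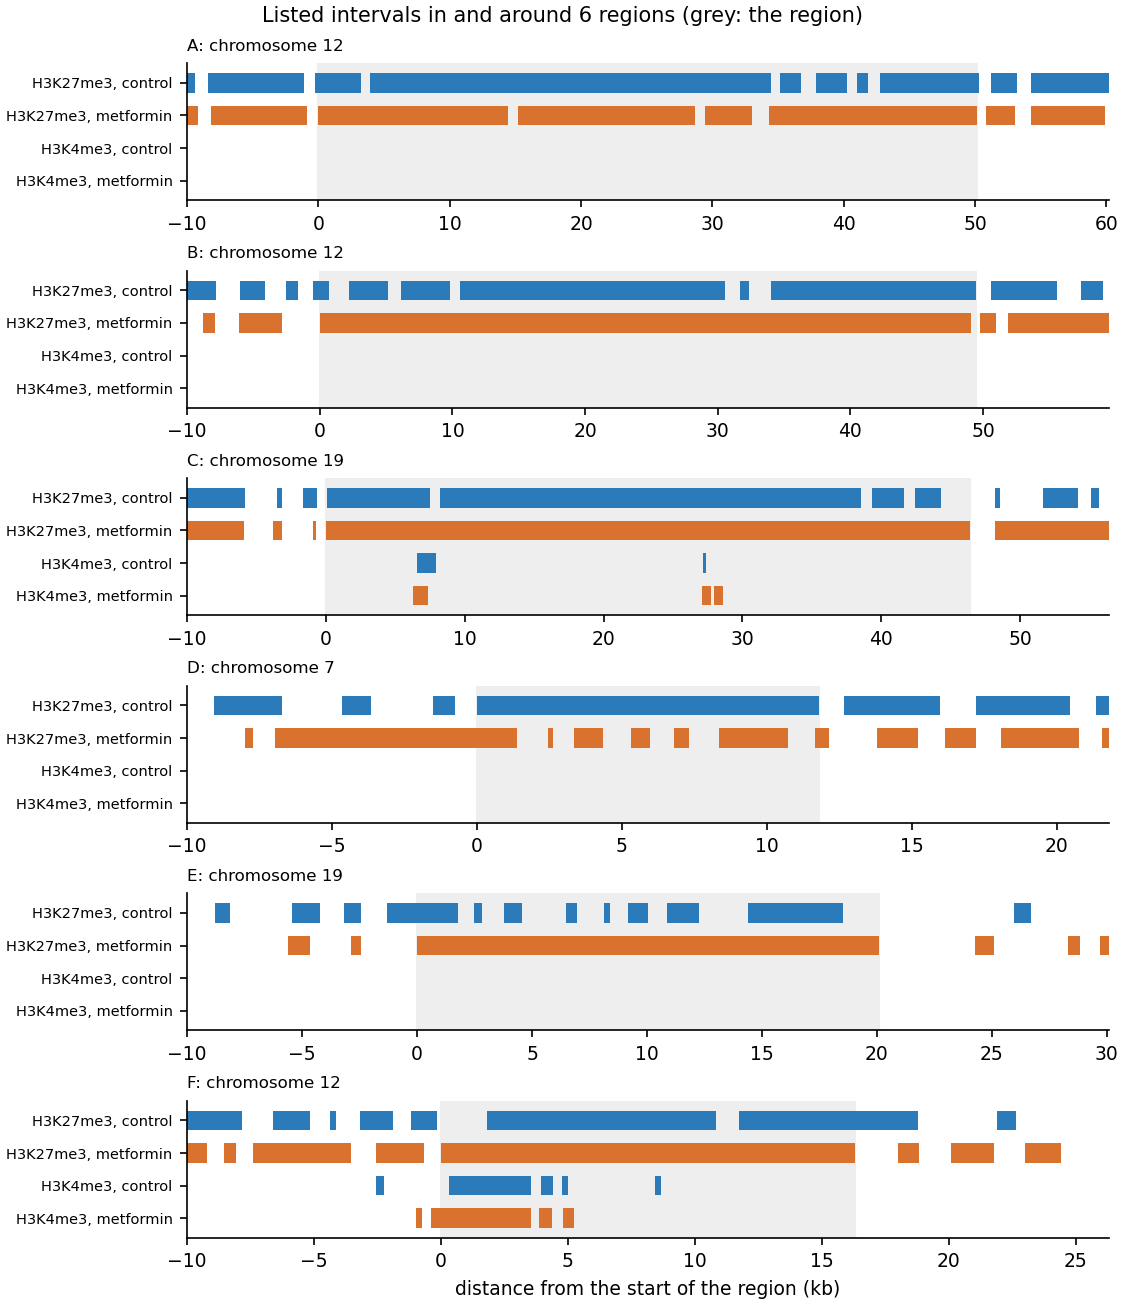
Listed intervals of both marks in 6 regions and 10 kb to each side, by distance from the start of the region (kb), with the region shaded grey. A to C are the 3 longest regions, D (chr7:131411992-131423788) and E (chr19:39766405-39786479) are those divided and joined with most pieces, and F (chr12:48394724-48411012) has most control H3K4me3 inside. H3K4me3 is listed inside C and F only.

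The deposited value of each interval, read as a −log10 q, had a higher median in wider intervals. The highest values belonged to narrower ones, up to 53.0 in the control list and 49.9 in the metformin list. In the control list its median was 2.03 for intervals of 10 kb or more (range 1.65 to 2.83), 1.72 for those of 2 to 10 kb and 1.51 for all. In the metformin list the medians were 2.03 (1.54 to 3.63), 1.72 and 1.5. The intervals of the other list that touched long ones, undivided partners included, had medians of 1.95 in the metformin list (557 intervals, median width 3.63 kb) and 1.85 in the control list (904 intervals, 2.51 kb). These H3K27me3 values were compared within a list only.

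H3K4me3 was listed inside a minority of the regions. It touched 39 of 394 regions in control (9.90%, 7.13 to 13.3) and 41 after metformin (10.4%, 7.57 to 13.9), and 36 regions were common to both. Counting only H3K4me3 intervals with a deposited value of 5 or more, the numbers were 23 and 34, and the counts were no longer near-equal. Whether this limit selects alike in both lists was not tested. Inside the regions there were 70 control and 91 metformin H3K4me3 intervals. They covered 36.6 kb, or 0.633% of the region length, in control and 57.1 kb, or 0.987%, after metformin.

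Read against all H3K27me3 intervals, more of the long ones met H3K4me3, and wider intervals are met more easily. In control 12 of 210 long intervals (5.71%, 2.99 to 9.77) were overlapped by control H3K4me3, against 3.10% of those of 2 to 10 kb and 1.36% of all. After metformin 34 of 289 (11.8%, 8.29 to 16.1) were overlapped by metformin H3K4me3, against 4.84% and 2.22%. By length the order was different: H3K4me3 lay on 0.338% of the long control intervals against 0.596% for 2 to 10 kb and 0.601% for all. After metformin it lay on 1.20%, 1.20% and 1.16%.

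The regions that were long in the metformin list only, 48.7% of all regions, held most of this H3K4me3 length in both conditions. A few regions, named below, held much of it. The metformin-only regions carried 22.5 kb in control and 35.6 kb after metformin (0.905% and 1.43% of their length). Of these 192 regions 21 and 22 were touched (10.9% and 11.5%), close to the 9.90% and 10.4% of all regions. In control-only regions the values were 5.44 and 8.04 kb (0.390% and 0.577%) with 6 of 114 regions touched in either condition. In regions long in both lists they were 8.67 and 13.5 kb (0.455% and 0.707%) with 12 and 13 of 88 touched (13.6% and 14.8%).

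More H3K4me3 length was listed inside the regions after metformin, 1.56 times the control value, against 1.12 times for all listed H3K4me3. The ratio was 1.55 in regions long in both lists, 1.48 in control-only and 1.58 in metformin-only regions, so it was of similar size whichever list had chosen the region. Intervals of 2 to 10 kb showed like ratios, 1.51 for those of the control list and 1.63 for those of the metformin list, and nothing particular to the long regions was read from it. Of the 44 regions with H3K4me3 in either condition, 32 held more of it after metformin and 12 more in control. At least 1 kb of H3K4me3 lay in 12 regions in control and in 23 after metformin.

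Few of the H3K4me3 intervals inside the regions were wide. Of the 70 control intervals, 3 (4.29%) were 2 kb or wider, against 14.6% of all control H3K4me3 intervals, and of the 91 metformin intervals 7 (7.69%), against 16.4%. Their median −log10 q was 4.68 in control and 4.86 after metformin, against 5.73 and 6.31 for all. Partners in the other condition's list were present for 58 of 70 control (82.9%, 72.0 to 90.8) and 57 of 91 metformin intervals (62.6%, 51.9 to 72.6), against 77.3% and 67.3% of all H3K4me3 intervals.

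A few regions held much of the H3K4me3, the 5 with most having 38.6% of its length in control and 32.6% after metformin. At chr4:4867878-4878035, a metformin interval of 10.2 kb that the control list covered to 84.9% in 3 intervals, H3K4me3 covered 2875 bp in 6 control intervals and 5056 bp in 4 metformin intervals. The metformin H3K4me3 interval chr4:4871066-4874025 (2960 bp) overlapped 3 separate control H3K4me3 intervals there. In this region H3K4me3 intervals were thus fewer after metformin and covered more sequence. That its H3K27me3 was 1 wide interval after metformin follows from the rule, since the region was long in the metformin list only.

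At chr12:48394724-48411012 (16.3 kb, metformin only), H3K4me3 covered 4199 bp in control and 4500 bp after metformin. Its main interval was chr12:48395054-48398285 in control (−log10 q 22.5) and chr12:48394336-48398283 after metformin (28.3), at the left end of the region. At chr6:24905549-24916622 (11.1 kb, control only) the lengths were 2697 and 3405 bp, in 6 and 5 intervals that lay in the middle of the region. These 3 regions led in both conditions.

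Neighbouring regions on chromosome 14 and a region on chromosome 2 also held H3K4me3, in part across an end. An H3K4me3 interval crossed the left end of chr14:88790370-88801449 and was 2013 bp wide in control cells and 2221 bp with metformin. In all, 2104 and 3257 bp of H3K4me3 lay in this region. Less than 1 kb to its left lay the region chr14:88777715-88789410, where H3K4me3 covered 1533 and 1398 bp. At chr2:136876022-136887289 (11.3 kb) a wide H3K4me3 interval ran across the left end. Its width was 3995 bp in the control list, with 1288 bp inside, and 4991 bp in the metformin list, with 1400 bp inside. At chr12:6041855-6064124 (22.3 kb) it lay near the middle, as 2 control intervals (1379 bp) and 3 metformin intervals (2433 bp).

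Summed over all regions, H3K4me3 lay more toward their ends than in their middle. Within 2 kb of an end lay 60.6% of its length in control and 58.5% after metformin, while these stretches made up 27.2% of the region length. By distance from the end, H3K4me3 covered 2.33% (control) and 3.25% (metformin) of the outermost 500 bp inside, and 0.385% and 0.621% of the stretch 2 to 5 kb inside. The difference was present in regions long in both lists (3.74% against 0.0610% in control, 4.38% against 0.0309% after metformin) and in metformin-only regions (2.84% against 0.498%, and 4.13% against 0.909%). In the former it was smaller against the stretch 5 to 10 kb inside, with 0.490% and 0.641% (84 windows). Only 12 and 13 of those 88 regions held any H3K4me3. In control-only regions it was absent in control, with 0.385% of the outermost 500 bp and 0.443% of the stretch 2 to 5 kb inside. After metformin it was small there, with 0.885% and 0.591%. Only 6 of these 114 regions held H3K4me3 in either condition. Outside, it covered 2.31% and 2.86% from 1 to 2 kb, 1.07% and 1.5% from 5 to 10 kb, and 2.49% and 2.99% from 50 to 100 kb.

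Of the 788 region ends, 36 had H3K4me3 within 1 kb in control and 36 after metformin (4.57%, 3.22 to 6.27 in each), and 34 ends were common to both. In no region did both ends have it within 1 kb, in either condition. Within 2 kb both ends had it in 1 region per condition, and within 5 kb in 4 (control) and 6 (metformin). With so few ends, nothing was read from this. Ends of intervals of 2 to 10 kb had H3K4me3 within 1 kb in 2.39% of cases in control (2.17 to 2.62) and in 3.59% after metformin (3.34 to 3.85). Within 5 kb the shares were 8.12% of region ends against 6.87% in control. After metformin they were 8.88% against 9.60%, so the order depended on the window. The H3K4me3 interval crossed the end at 20 of the 36 control ends and at 28 of the 36 metformin ends, and lay outside alone at 7 and 4. Going outward from a region end, the nearest H3K4me3 interval lay at a median of 91.7 kb in control and 81.3 kb after metformin.

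**Figure D5:**
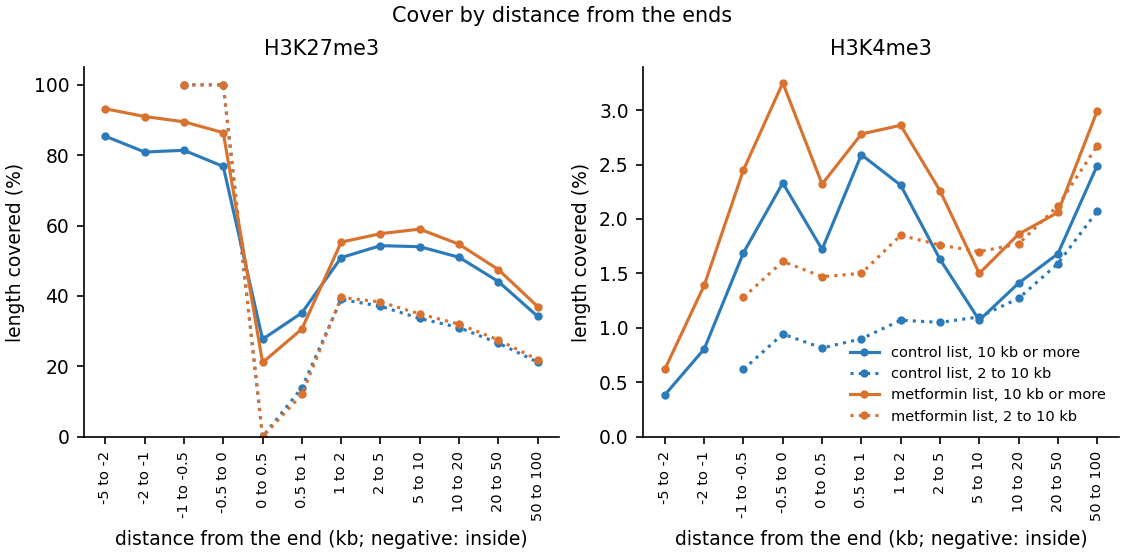
Share of sequence (%) covered by H3K27me3 (left) and H3K4me3 (right) by distance from the ends (kb, negative values inside), for the 394 regions (solid) and for intervals of 2 to 10 kb of the same list (dotted). Near the regions control H3K4me3 peaks from 0.5 to 1 kb outside their ends (2.59%) and metformin H3K4me3 in the outermost 0.5 kb inside (3.25%), and both are low more than 2 kb inside.

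The gaps that divided the regions seldom held H3K4me3. Of the 628 control gaps inside long metformin intervals, 8 (1.27%, 0.552 to 2.49) held control H3K4me3, and of the 357 metformin gaps inside long control intervals, 1 (0.280%, 0.00709 to 1.55) held metformin H3K4me3. H3K4me3 lay on 0.268% of the length of the control gaps and on 0.303% of that of the metformin gaps. On the parts of the regions under H3K27me3 of the same condition it lay on 0.613% and 1.03%. Nearly all of these gaps thus held no listed H3K4me3. Stretches at the ends of regions that the control list left uncovered held more, with 2.77% of their length under control H3K4me3, against 0.829% for those of the metformin list. These shares rest on 12 of 215 control stretches (5.58%, 2.92 to 9.55) and 3 of 137 metformin stretches (2.19%, 0.454 to 6.27). With 1 library per mark and condition, no difference between the lists was read.

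Few regions in the concentrations on chromosomes 12 and 19 held H3K4me3. Of the 73 regions in the first 10 Mb of chromosome 12, 7 were touched by H3K4me3 in each condition. Of the 29 regions from 40 to 43 Mb of chromosome 19, 1 was touched in each condition. With such numbers no difference from the 9.90% and 10.4% of all regions was read.

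Long intervals were more numerous in the metformin list, and their numbers varied by chromosome. Over all chromosomes there were 1.38 times as many as in control, against 1.09 times for listed H3K27me3 length. The ratio was 1.12 for intervals of 2 to 5 kb and 1.28 for those of 5 to 10 kb. Among long intervals it was 1.34 for 10 to 15 kb, 1.59 for 15 to 20 kb and 1.24 for 20 kb or more (17 and 21 intervals). With gaps under 670 bp closed in both lists, the long intervals numbered 237 in control and 289 after metformin. Chromosome 9 had 4 long control and 14 long metformin intervals, chromosome 14 had 10 and 22, and chromosome 16 had 2 and 7. On chromosomes 6 and 3 the numbers were equal, 14 and 14 and 7 and 7, and on chromosome 20 there were 15 and 14. With such small counts and 1 library per condition, no difference among chromosomes was read.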

How the data were processed

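The files are peak lists of 4 ChIP-seq libraries, with a chromosome, start, end, name and 1 value per line. Per the submitters' processing notes, Trimmomatic 0.38, Bowtie and MACS2 were used with the build hg19 (GRCh37). Their options, and whether the input served as background, are not given there. Each list belongs to 1 library, per the labels. The deposited value is read as −log10 q, an inference from the values. It served to describe intervals and to set value limits, which were the same in both lists. Read depth is unknown.

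Lettered sub-peaks sharing an interval were joined, keeping the highest value. Length is end minus start, and positions are 1-based. H3K27me3 intervals of 10 kb or more of either list were joined where they shared at least 1 bp. Cover is the share of a region's length under a list's intervals, and pieces are the intervals touching it. Shares of counts carry exact Clopper-Pearson 95% intervals. Named regions are the 10 longest, the 5 divided or joined with most pieces, the 5 with lowest cover by the list that did not choose them, the 5 with most H3K4me3 per condition, and those at the limit. Others were named after their values were seen. The members, lists and rules were chosen with earlier results of these data known. Planned gene lists and sequences were not used, since the genes given are placed on another build (GRCh38.p14). Alternatives were other length limits, joining, value limits and windows. The code was tested on simulated data. Python 3.11.15, pandas 2.3.3, numpy 2.4.6, scipy 1.17.1 and matplotlib 3.10.9 were used.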

Additional observations from a re-analysis of the deposited data

How the results depend on the processing

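With 1 library per mark and condition there was no replicate to leave out. No paired analysis was possible because the labels give no replicates. Closing gaps below a shared smallest gap, leaving out chromosome 12, and counting divisions after joining were chosen after seeing the data. Values are control, then metformin, unless named. The number of regions (394, from 210 and 289 long intervals) was 671 (368 and 525) with a limit of 8 kb, 108 (54 and 80) with 15 kb and 31 (17 and 21) with 20 kb. It was 1240 (793 and 966) when intervals within 1 kb were joined first and 3281 (2481 and 2680) within 2 kb, so the count depends strongly on how far intervals are joined. Cover (85.0% and 92.7%) was 83.1% and 91.4% with 8 kb, 86.8% and 95% with 15 kb, 93.2% and 95.3% with 20 kb, 83.7% and 89.6% joined within 1 kb, 81.7% and 86.4% within 2 kb, 82.8% and 91.7% at a value of 1.5 or more, 86.3% and 91.7% with a shared smallest gap, and 83.8% and 92.0% without chromosome 12. Divided and joined regions (129 and 208) numbered 204 and 354 with 8 kb, 33 and 65 with 15 kb, 12 and 17 with 20 kb, 394 and 565 joined within 1 kb, 923 and 1189 within 2 kb, 68 and 151 with gaps of 1 kb or more, and 10 and 45 with gaps of 2 kb or more. Over all regions, cover and the counts of divided and joined regions follow largely from how many long intervals each list has. Regions with H3K4me3 (39 and 41) numbered 12 and 13 with 15 kb, 6 and 6 with 20 kb, and 23 and 34 for H3K4me3 values of 5 or more. Ends with H3K4me3 (36 and 36) numbered 64 and 70 with a window of 5 kb. The cause of these shifts was not tested beyond what each setting changes by construction. What depth limits cannot be stated, since the lists give no read counts.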

Other observations

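Some regions lay far from all others. The only region of chromosome X, chrX:71283785-71294726, was a control interval of 10.9 kb that 4 metformin intervals covered to 54.9%. The most isolated of the rest was chr11:45716673-45727417, a metformin interval of 10.7 kb at 71.6 Mb from the nearest other region, which 3 control intervals covered to 82.9%. None of these carried H3K4me3, and most of the 394 regions carried none either. They were named after their values were seen.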
